A study of Homo sapiens with 12 samples.

Results

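MALAT1 and NEAT1, a pair of long noncoding RNAs made from neighbouring genes on chromosome 11, were examined for contact with 3 RNA-binding proteins. The members were found by position: listed positions on the plus strand of chromosome 11 (hg19) from 65265233 to 65273940 were counted to MALAT1, a span of 8708 nt, and those from 65190269 to 65213011 to NEAT1, a span of 22743 nt. The rule uses coordinates alone. The members are 2 of 97619 strand-specific features that held counts, the other features being bins of 10 kb, and they held 6275 of the 1162690 listed positions of the series.

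The data were 12 iCLIP libraries made from H9, a long-established line of human embryonic stem cells kept on Matrigel. In iCLIP, ultraviolet light crosslinks proteins to RNA in living cells, 1 protein is then immunoprecipitated, and the cDNAs sequenced from its RNA end next to the crosslinked nucleotide. Antibodies against RBFOX2 (FOX2), TDP43 and hnRNP M1-4 (hnRNP M) were each used on P-KO cells (source label H9 SPA PKO) and on wild-type (WT) cells, with 2 libraries for each of the 6 groups, called biological replicates by the series design. All cells, WT included, received 400 mJ per cm2 of ultraviolet light. Neither what P-KO removes nor whether the P-KO cells are 1 clone is given in the sources used here.

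MALAT1 is retained in the nucleus, where it is enriched in nuclear speckles, compartments rich in splicing factors. NEAT1 is the scaffold of paraspeckles, nuclear bodies that form on the long form of this RNA and in which several RNA-binding proteins gather. FOX2 is a splicing factor that recognises GCAUG, TDP43 prefers stretches rich in GU, and hnRNP M is one of the plentiful nuclear proteins with a role in splicing.

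Each deposited count covers 11 nt around the listed position, so overlapping counts were not added: windows were kept from the highest count down with no overlap, and their summed counts are called window counts. The libraries held 58191 to 648651 window counts, with all 4 hnRNP M libraries at 123482 or fewer. Counts under a limit that depended on the library and the transcript were not listed. On the main MALAT1 transcript the lowest listed count was 3 to 15, or 23.1 to 80.6 CPM (counts per 1000000 window counts of the library). The genotypes were apart in the region from 25000001 to 26000000 of chromosome 15, plus strand. It held 0.0530% to 0.160% of window counts in the 6 P-KO libraries and 0.915% to 1.63% in the 6 WT libraries. Since what P-KO removes is not given, this describes the libraries and does not check their labels. No library of input RNA or of a control antibody was among the samples analysed here, so more contact with an RNA and more of that RNA in the cells cannot be told apart in any share below.

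No hg19 sequence was used here, so crosslinked sites are given by position, counted in nt from the first base of each span. The RefSeq table holds 2 annotated starts of MALAT1 in build GRCh38.p14 and none of NEAT1. Both are printed to show the annotated 5′ end of MALAT1, since no library listed a position before nt 1587 of its hg19 span; positions were not converted between the builds. Each window has 250 bases before the start in lower case and the first 50 transcribed bases in capitals; the first lies at chr11:65497488-65497787 and the second at chr11:65498795-65499094, both on the plus strand.
MALAT1 start 1: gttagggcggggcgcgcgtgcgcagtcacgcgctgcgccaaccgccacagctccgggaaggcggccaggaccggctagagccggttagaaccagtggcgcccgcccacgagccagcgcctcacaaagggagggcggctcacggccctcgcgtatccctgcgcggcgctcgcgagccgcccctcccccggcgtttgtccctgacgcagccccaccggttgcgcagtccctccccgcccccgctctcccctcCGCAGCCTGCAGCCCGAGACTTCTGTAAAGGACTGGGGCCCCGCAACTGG
MALAT1 start 2: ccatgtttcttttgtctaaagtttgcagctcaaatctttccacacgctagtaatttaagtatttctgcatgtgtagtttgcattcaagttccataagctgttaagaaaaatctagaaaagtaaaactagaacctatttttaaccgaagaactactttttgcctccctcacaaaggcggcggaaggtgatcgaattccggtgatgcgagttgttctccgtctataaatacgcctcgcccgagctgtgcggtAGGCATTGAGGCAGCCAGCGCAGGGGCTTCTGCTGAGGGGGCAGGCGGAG

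MALAT1 was among the features with the most window counts for FOX2 and TDP43, and less so for hnRNP M. In FOX2 libraries it held 0.792% and 0.559% of window counts in P-KO cells, against 0.377% and 0.241% in WT cells. In TDP43 libraries it held 0.587% and 0.504% in P-KO cells, against 1.19% and 0.556% in WT cells. In hnRNP M libraries it held 0.161% and 0.0842% in P-KO cells, against 0.109% and 0.147% in WT cells. All 8 FOX2 and TDP43 libraries lay above all 4 hnRNP M libraries, and the FOX2 and TDP43 values overlapped. By window counts MALAT1 ranked 2 to 7 among the features of FOX2 libraries, 2 to 4 in TDP43 libraries and 5 to 14 in hnRNP M libraries. The order turned when windows were counted in place of their counts: MALAT1 then averaged 0.0914% ± 0.0267 of the windows of FOX2 libraries, 0.0688% ± 0.0143 of those of TDP43 libraries and 0.120% ± 0.0266 of those of hnRNP M libraries (SD, n = 4 each; exact permutation test among proteins, p = 0.0370).

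The share of MALAT1 differed among the 3 proteins (exact permutation test of log2 shares within genotype, p = 0.00519, and 0.0167 after Benjamini-Hochberg adjustment over 10 exact tests). Over both genotypes it averaged 0.492% ± 0.238 in FOX2 libraries, 0.708% ± 0.320 in TDP43 libraries and 0.125% ± 0.0353 in hnRNP M libraries (SD, n = 4 each). The ratio of mean shares was 3.92 for FOX2 over hnRNP M, 5.65 for TDP43 over hnRNP M and 0.694 for FOX2 over TDP43. These shares rest on 1838 and 3623 window counts in FOX2 P-KO and 824 and 695 in FOX2 WT, but on only 100 and 49 for hnRNP M in P-KO cells and 67 and 182 in WT cells. The lowest count that could be listed was highest, in CPM, in hnRNP M P-KO replicate 1. With windows under 80.6 CPM left out of every library, the highest of these limits, the difference among proteins kept its side of the threshold (exact permutation test, p = 0.0104).

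The same comparison was made across all features with edgeR's quasi-likelihood test and Benjamini-Hochberg adjustment over 10560 tested features, both of the RNAs among them, with a threshold of 0.05 on the adjusted p. MALAT1 was higher in FOX2 than in hnRNP M libraries by 3.56 on the log2 scale (SE 1.05, adjusted p = 0.00675 by edgeR), where 19.7% of all features passed, 19.4% of features being higher in FOX2 and 0.312% being lower. It was higher in TDP43 than in hnRNP M libraries by 3.93 (SE 1.07, adjusted p = 0.00582 by edgeR), where 16.1% passed, 15.9% being higher in TDP43. Between FOX2 and TDP43 libraries the log2 difference was -0.37 (SE 0.95, adjusted p = 0.868 by edgeR), where 11.2% passed. The scaling used, TMM, placed the median feature at 1.39 for FOX2 and at 1.51 for TDP43 against hnRNP M. Without TMM those medians were 0.01 and 0.34, and MALAT1 was higher by 1.86 (adjusted p = 0.0398) and 2.46 (adjusted p = 0.0170) by edgeR. Leaving out FOX2 WT replicate 1 raised the adjusted p of the first comparison to 0.0529, and leaving out hnRNP M P-KO replicate 1 or replicate 2 raised that of the second to 0.0663 or 0.0511. With windows counted in place of their counts, the log2 differences were only 0.79 for FOX2 (adjusted p = 0.0407 by edgeR) and 0.74 for TDP43 (adjusted p = 0.10 by edgeR), so the second no longer passed. Both values include TMM. In unscaled shares of windows the direction was the opposite, with hnRNP M libraries highest on average (0.120%, against 0.0914% for FOX2 and 0.0688% for TDP43).

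The NEAT1 shares of the 3 proteins overlapped. In FOX2 libraries it held 0.274% and 0.361% of window counts in P-KO cells, against 0.117% and 0.133% in WT cells. In TDP43 libraries it held 0.243% and 0.448% in P-KO cells, against 0.405% and 0.317% in WT cells. In hnRNP M libraries it held 0.290% and 0.218% in P-KO cells, against 0.175% and 0.180% in WT cells. The P-KO libraries lay above the WT libraries for FOX2 and for hnRNP M, and the genotypes overlapped for TDP43. By window counts NEAT1 ranked first of all features in hnRNP M P-KO replicate 1 and at 3 to 8 in the other hnRNP M libraries, at 5 to 7 in TDP43 libraries and at 9 to 22 in FOX2 libraries; its span is longer than the bins it is ranked with.

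The share of NEAT1 did not pass the test among proteins (exact permutation test, p = 0.0770, adjusted 0.154). Over both genotypes it averaged 0.221% ± 0.117 in FOX2 libraries, 0.353% ± 0.0912 in TDP43 libraries and 0.216% ± 0.0532 in hnRNP M libraries (SD, n = 4 each). That p was 0.0430 without FOX2 P-KO replicate 2 and 0.0237 without TDP43 P-KO replicate 1 by the same exact test. It also passed with other counted quantities, but with different orders. By number of windows (exact p = 0.00593) NEAT1 averaged 0.0879% ± 0.0425 in FOX2, 0.0986% ± 0.0194 in TDP43 and 0.209% ± 0.0522 in hnRNP M libraries, so that hnRNP M was highest. By the sum over all listed positions (exact p = 0.000741) it averaged 0.327% ± 0.136 in FOX2, 0.745% ± 0.227 in TDP43 and 0.197% ± 0.0600 in hnRNP M libraries, with hnRNP M lowest. In edgeR's quasi-likelihood test NEAT1 differed by 1.68 on the log2 scale for FOX2 against hnRNP M (SE 0.96, adjusted p = 0.217), by 2.30 for TDP43 against hnRNP M (SE 0.98, adjusted p = 0.0902) and by -0.62 for FOX2 against TDP43 (SE 0.94, adjusted p = 0.732). The difference between TDP43 and hnRNP M passed with DESeq2 (adjusted p = 0.000696), with a replicate block in edgeR (adjusted p = 0.0307) and in edgeR with no filter on low features (adjusted p = 0.0259). Without TMM the difference between FOX2 and hnRNP M was -0.09, so its direction depended on the scaling. Without hnRNP M WT replicate 2 the NEAT1 difference from hnRNP M was 2.65 for FOX2 (adjusted p = 0.0301 by edgeR) and 3.17 for TDP43 (adjusted p = 0.0164 by edgeR).

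**Figure D1:**
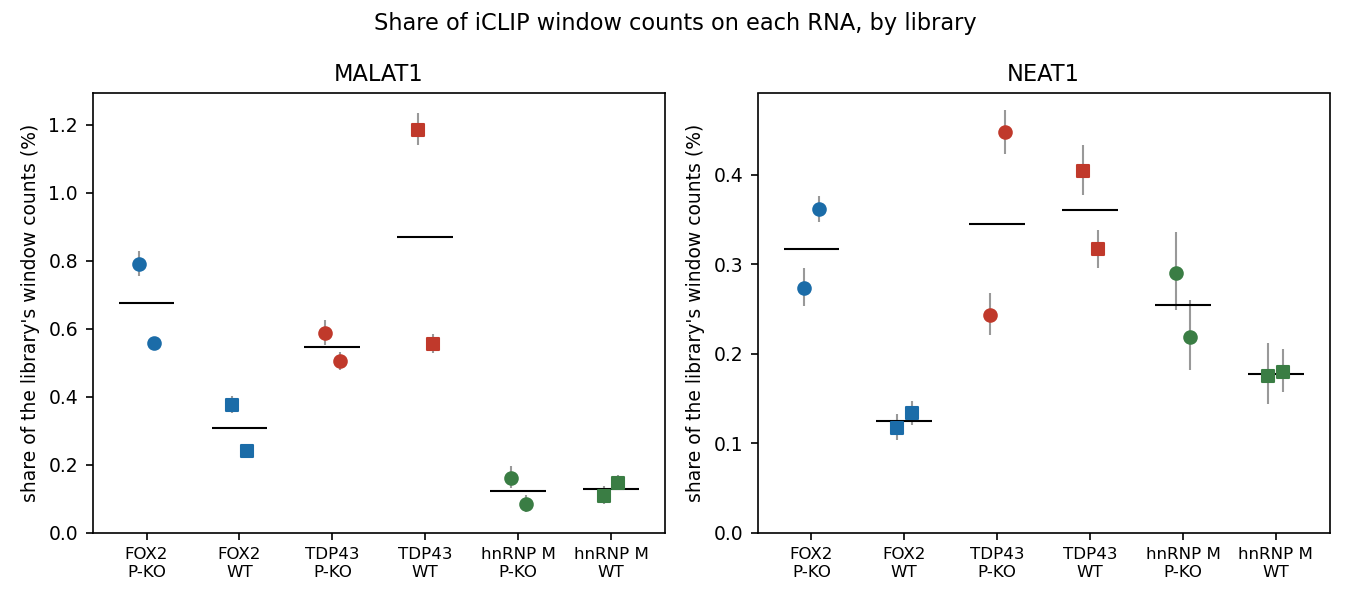
Share of each library's window counts on MALAT1 (left) and NEAT1 (right), in percent, by protein and genotype. Points are libraries, grey bars are exact 95% intervals that cover counting error only, and black lines are group means; MALAT1 lies between 0.0842% and 0.161% in the hnRNP M libraries, below every other library.

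The balance between both RNAs separated hnRNP M from the other proteins. The ratio of MALAT1 to NEAT1 window counts was 2.89 and 1.55 in FOX2 P-KO libraries, against 3.22 and 1.81 in FOX2 WT libraries. It was 2.41 and 1.13 in TDP43 P-KO libraries, against 2.93 and 1.76 in TDP43 WT libraries. It was 0.556 and 0.386 in hnRNP M P-KO libraries, against 0.620 and 0.820 in hnRNP M WT libraries. Thus all 8 FOX2 and TDP43 libraries had more counts on MALAT1 than on NEAT1, and all 4 hnRNP M libraries had fewer. By number of windows the TDP43 libraries and FOX2 P-KO replicate 2 also had fewer on MALAT1. The ratio differed among proteins (exact permutation test of log2 ratios, p = 0.00667, adjusted 0.0167), and this comparison within a library does not depend on its total. Between P-KO and WT the log2 ratio differed by -0.42 (exact permutation test within protein, two-sided, p = 0.176, adjusted 0.251). With same-numbered libraries as pairs, a setting added after the values had been seen, the ratio was lower in P-KO in 6 of 6 pairs (exact permutation test, p = 0.0313, the smallest possible). Per kb of span, MALAT1 held more counts than NEAT1 in all 12 libraries, by 4.04 to 8.41 times in FOX2, 2.94 to 7.66 times in TDP43 and 1.01 to 2.14 times in hnRNP M libraries.

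Between genotypes, neither RNA's share of window counts passed its test with all libraries in, while NEAT1 passed under a pair of other settings. The mean MALAT1 share in P-KO cells was 2.19 times that in WT cells with FOX2, 0.627 times with the TDP43 antibody and 0.958 times with hnRNP M. For NEAT1 the ratios were 2.54 with FOX2, 0.958 with TDP43 and 1.43 with hnRNP M. With both libraries of P-KO above both of WT, as for FOX2 on each RNA, an exact p cannot go below 0.333 in a test of 2 libraries against 2. Over the 3 proteins, the log2 MALAT1 share differed by 0.15 between P-KO and WT (exact permutation test within protein, two-sided, p = 0.694), and the log2 NEAT1 share by 0.57 (p = 0.0926, adjusted 0.154), where the smallest possible p is 0.00926. Without TDP43 P-KO replicate 1 the NEAT1 difference was 0.72 (exact p = 0.0185), and by number of windows it was 0.58 (exact p = 0.0370).

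In edgeR's quasi-likelihood test the effect of P-KO common to the 3 proteins was -0.08 on the log2 scale for MALAT1 (SE 0.82) and 0.47 for NEAT1 (SE 0.81), with an adjusted p of 1.00 for both; 0.123% of features passed in that comparison. Neither RNA had an unadjusted p under 0.05 in it, and DESeq2 called neither. Within FOX2 the log2 difference was 1.30 for MALAT1 (SE 1.37) and 1.54 for NEAT1 (SE 1.35), both with an adjusted p of 1.00 by edgeR, where 0.0189% of features passed. Within TDP43 it was -0.75 and -0.08, and within hnRNP M -0.71 and -0.01, for MALAT1 and then NEAT1, all with an adjusted p of 1.00, where 0.0284% and 0.0473% of features passed. The sign of the common MALAT1 value turned without TMM, to 0.13, and on leaving out TDP43 WT replicate 1, hnRNP M WT replicate 2 or hnRNP M P-KO replicate 2, to 0.03, 0.36 and 0.02. A difference of the P-KO effect between proteins was not called for MALAT1 (adjusted p = 0.903 by edgeR) or NEAT1 (0.992). Each of these log2 differences was within 2 SE of 0, so with 2 libraries a group no change of the size measured for FOX2 was detectable.

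On MALAT1 the mean position of the counts differed among the proteins, while FOX2 and TDP43 shared their highest segment and many sites. The first position listed in any library was nt 1587 and the last was nt 8277. The mean position of FOX2 counts was nt 6092 and 6126 in P-KO libraries, against 6141 and 6141 in WT libraries. For TDP43 it was nt 6600 and 6601 in P-KO libraries, against 6573 and 6676 in WT libraries. For hnRNP M it was nt 5177 and 4034 in P-KO libraries, against 5036 and 5024 in WT libraries. The mean positions of the 3 proteins did not overlap, with hnRNP M nearest the 5′ end and TDP43 nearest the 3′ end. The difference among proteins had p = 0.000741 in the exact permutation test, the smallest that the arrangements can give, and 0.00741 after adjustment. Between P-KO and WT the mean position differed by -160.2 nt averaged over proteins (exact permutation test, p = 0.731).

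In 1 kb segments of the genomic grid, nt 5769 to 6768 held the largest mean share of MALAT1 counts for FOX2, at 51.9%, and for TDP43, at 59.4%. The next segments differed: for FOX2 they were nt 4769 to 5768 (20.2%) and nt 6769 to 7768 (18.9%), and for TDP43 nt 6769 to 7768 (35.4%) and nt 2769 to 3768 (2.48%). For hnRNP M the largest shares lay nearer the 5′ end, at nt 3769 to 4768 (32.7%) and nt 2769 to 3768 (21.1%), before nt 5769 to 6768 (19.9%). For hnRNP M, segment nt 3769 to 4768 held 35.0% and 34.7% of MALAT1 counts in P-KO libraries and 44.8% and 16.5% in WT libraries. In the 8 FOX2 and TDP43 libraries it held 0% to 4.32%.

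TDP43 counts were the most concentrated. Their lower and upper quartiles lay only 145 and 253 nt apart in P-KO libraries and 119 and 221 nt apart in WT libraries, around a median between nt 6707 and 6719. FOX2 quartiles were 799 and 1205 nt apart in P-KO and 645 and 1372 nt apart in WT libraries. For hnRNP M they were 3130 and 1343 nt apart in P-KO and 1385 and 3234 nt apart in WT libraries. The TDP43 distances were shorter than all others, and those of FOX2 and hnRNP M overlapped between 1343 and 1372 nt. The strongest 100 nt of MALAT1 for TDP43, nt 6601 to 6700, held 22.9% to 26.5% of its counts. For FOX2 it was nt 6201 to 6300, with 10.4% to 19.4%.

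**Figure D2:**
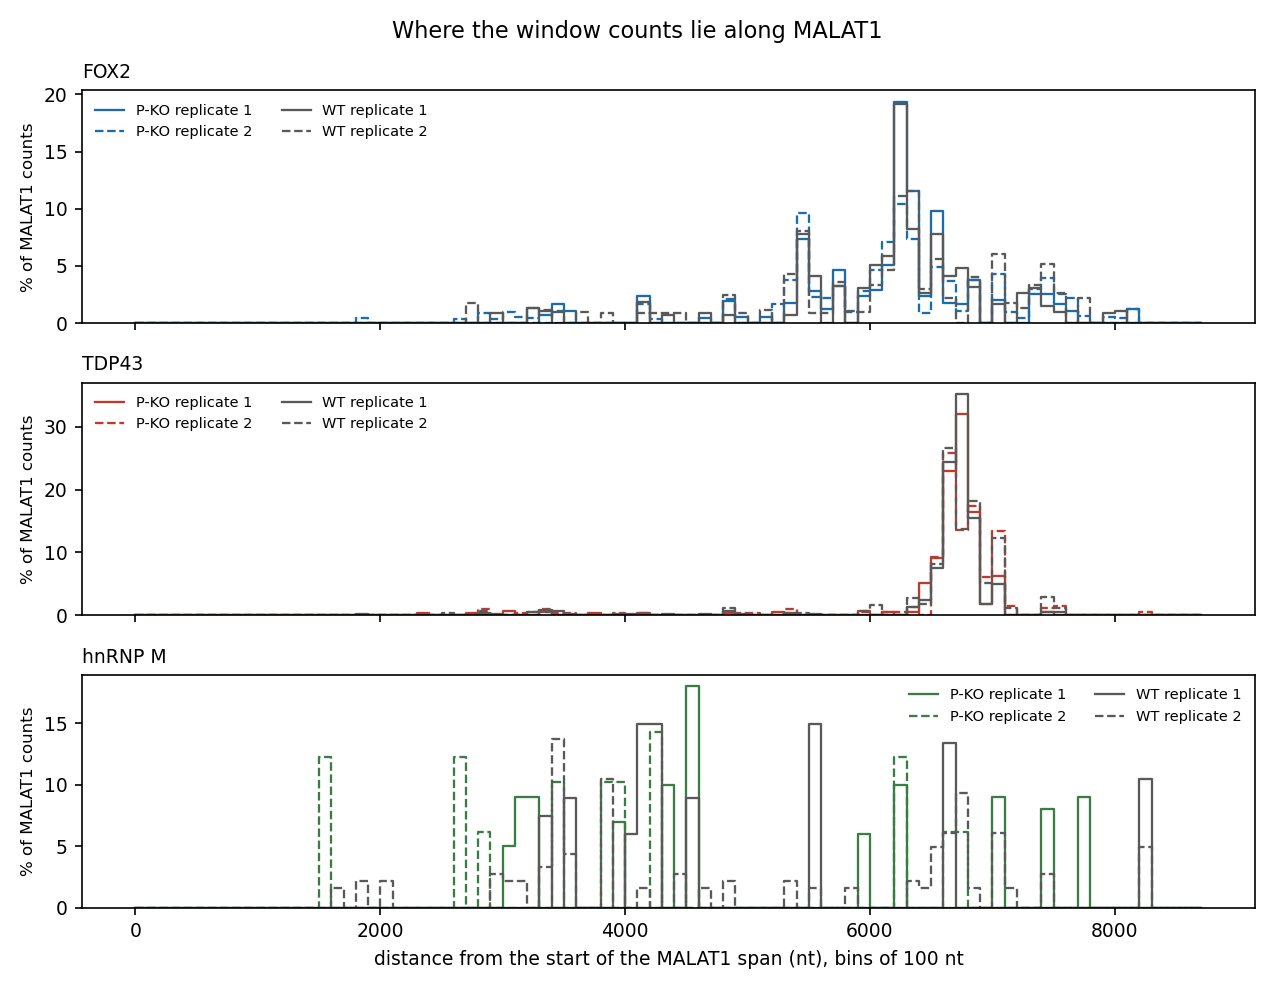
Percent of a library's MALAT1 window counts in bins of 100 nt, against distance from the start of the span in nt, with 1 panel per protein and 1 line per library (P-KO coloured, WT grey). TDP43 is highest between nt 6601 and 6900 in all 4 libraries and rises again at nt 7001 to 7100, FOX2 peaks at nt 6201 to 6300, and hnRNP M lines do not coincide between libraries.

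The sites behind these profiles were named by their counts, as a description with no test. A site is a window that can be matched between libraries, and MALAT1 had 199 of them, none listed in all 12 libraries. The leading FOX2 site, nt 6259 (chr11:65271491), had 123 and 116 counts in FOX2 P-KO libraries and 62 and 39 in FOX2 WT libraries. It was listed in 1 TDP43 library, with 8 counts, and in no hnRNP M library. FOX2 sites at nt 6235, 6212 and 5458 were also listed in all 4 FOX2 libraries. Outside FOX2, nt 6235 and nt 6212 were each listed in 1 hnRNP M library, with 6 and 10 counts, and nt 5458 in 1 TDP43 library, with 7. The FOX2 site at nt 6551 (chr11:65271783) was different: it had 98 and 102 counts in FOX2 P-KO and 44 and 32 in FOX2 WT, and also 38 and 65 counts in TDP43 P-KO and 129 and 82 in TDP43 WT.

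By summed counts the leading TDP43 site was nt 6719 (chr11:65271951), with 119 and 34 counts in TDP43 P-KO and 326 and 64 in TDP43 WT libraries. FOX2 libraries had 18 and 21 counts there in P-KO and 16 in 1 WT library, and 2 hnRNP M libraries had 3 and 5. Its lead rests on TDP43 WT replicate 1: nt 6686 had 86 and 106 counts in TDP43 P-KO and 208 and 140 in TDP43 WT libraries, and without that library the sums were 217 at nt 6719 and 332 at nt 6686. The next TDP43 sites, nt 6686, 6848, 6657 and 6675, summed to 396 to 540 counts over the TDP43 libraries and to 31 to 107 over the FOX2 libraries. The 4 sites listed in at least 9 libraries, nt 6646, 6719, 6860 and 7046, all lay in this 3′ block. For hnRNP M the leading sites were nt 3814, 4218, 3161, 4121 and 3920, each with 12 to 20 counts in 2 of the 4 libraries; nt 3814 and nt 4218 were listed for no other protein.

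FOX2 had 98 MALAT1 sites listed in at least 2 of its libraries and TDP43 had 60. They shared 39, which is 39.8% of the FOX2 list and 65.0% of the TDP43 list. hnRNP M had 8, of which 3 were shared with each of the other proteins. Of the FOX2 sites, 72 were listed in both P-KO libraries and 42 in both WT libraries, and the 40 in common were 55.6% of the P-KO list and 95.2% of the WT list. Of the TDP43 sites, 36 were in both P-KO libraries and 43 in both WT libraries, and the 32 in common were 88.9% of the P-KO list and 74.4% of the WT list. The longer FOX2 list in P-KO goes with the deepest library of the series, FOX2 P-KO replicate 2; the part of depth in it was not tested.

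The profile along MALAT1 was alike between libraries of 1 protein for FOX2 and TDP43. Over 88 bins of 100 nt, Pearson's r was 0.862 to 0.953 between P-KO and WT libraries of FOX2 and 0.821 to 0.876 between its replicates. For TDP43 it was 0.848 to 0.994 between P-KO and WT and 0.856 to 0.868 between replicates. For both proteins the P-KO and WT libraries with the same number were the more alike: r was 0.909 and 0.953 for FOX2 and 0.993 and 0.994 for TDP43, against 0.862 and 0.880 for FOX2 and 0.848 and 0.877 for TDP43 with different numbers. FOX2 against TDP43 libraries gave 0.111 to 0.299, and hnRNP M replicates 0.0857 to 0.179 on far fewer counts. Bins of 1 RNA share its sequence and are not independent replicates, so these values are descriptions.

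Segments of 1 kb were tested with edgeR's quasi-likelihood test over 5586 bins of the genome, of which 7 of 9 MALAT1 segments and 22 of 24 NEAT1 segments passed the filter on low counts. FOX2 against TDP43 gave 8 calls on both RNAs (49.5% of all bins passed), FOX2 against hnRNP M 5 (33.2%), and TDP43 against hnRNP M 8 (25.8%). Together 29 segments were tested. The called part was below that of all bins for FOX2 against TDP43 and for FOX2 against hnRNP M. It was near that of all bins for TDP43 against hnRNP M. Against hnRNP M, 31.8% of all bins were called higher and 1.45% lower in FOX2, and 25.5% higher and 0.286% lower in TDP43. A call therefore does not set a segment of these RNAs apart from other bins. Of the 21 calls, 4 kept an adjusted p of 0.05 or lower on leaving out each library in turn, and 17 did not. With all libraries in, only 9 of the 21 calls held under every other setting in which the segment was tested. The remaining calls were each lost under at least 1 such setting, for example without TMM, with DESeq2 or with the number of windows. No segment of either RNA was called for the P-KO effect common to the 3 proteins, where 0.286% of bins passed; none had an unadjusted p under 0.05 there, and DESeq2 called none. Within each protein no bin of the genome passed between P-KO and WT in edgeR's test. Of all 5586 bins, 144 had an unadjusted p under 0.05 by edgeR within TDP43, 241 within FOX2 and 297 within hnRNP M. Among them were 4 of 22 NEAT1 segments within TDP43, 1 within FOX2 and 1 within hnRNP M. Within hnRNP M 2 of 7 MALAT1 segments were also among them, the lowest being nt 4769 to 5768 (unadjusted p = 0.00307, adjusted 0.528 by edgeR). That segment had none listed in the hnRNP M P-KO libraries and only 10 and 11 counts in the WT libraries.

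Both MALAT1 calls that were kept with any 1 library left out were against hnRNP M. Segment nt 4769 to 5768 had 351 and 905 counts in FOX2 P-KO and 129 and 147 in FOX2 WT libraries, against none listed in P-KO and 10 and 11 in WT libraries of hnRNP M (edgeR adjusted p = 0.00317, at most 0.00591 with 1 library left out). Segment nt 6769 to 7768 had 285 and 640 counts in TDP43 P-KO and 681 and 666 in TDP43 WT, against 26 and none listed in hnRNP M P-KO and none listed and 22 in hnRNP M WT (adjusted p = 0.0192, at most 0.0290). The call in nt 4769 to 5768 was lost with the number of windows in place of counts, and that in nt 6769 to 7768 was lost without TMM. No fold is given, since the hnRNP M values include libraries listed at 0. FOX2 and TDP43 differed in segment nt 4769 to 5768, which held 19.1% and 25.0% of MALAT1 counts in FOX2 P-KO and 15.7% and 21.2% in FOX2 WT libraries, against 1.28% and 2.17% in TDP43 P-KO and 1.46% and 2.03% in TDP43 WT. FOX2 was higher there by 2.46 on the log2 scale (SE 0.85, edgeR adjusted p = 0.0306), a call lost on leaving out any of the 8 FOX2 and TDP43 libraries, with an adjusted p of up to 0.186. The same call was lost with a minimum of 20 counts and with the number of windows in place of counts. The segment shares themselves did not overlap between FOX2 and TDP43.

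The remaining MALAT1 calls were against hnRNP M. Segment nt 5769 to 6768 had 1076 and 1592 counts in FOX2 P-KO and 502 and 308 in FOX2 WT, and 687 and 728 in TDP43 P-KO and 1644 and 849 in TDP43 WT. The hnRNP M libraries had 16 and 12 there in P-KO and 9 and 47 in WT. FOX2 was higher than hnRNP M by 4.36 on the log2 scale (SE 1.24, edgeR adjusted p = 0.0166), lost on leaving out any FOX2 library or any hnRNP M library of P-KO cells. This call of FOX2 above hnRNP M was also lost with a minimum of 20 counts and with the number of windows. TDP43 was higher by 5.54 (SE 1.31, adjusted p = 0.0100 by edgeR), lost without FOX2 P-KO replicate 1 or replicate 2, which share the fit, or hnRNP M P-KO replicate 1. TDP43 was also called above hnRNP M in segment nt 4769 to 5768 (adjusted p = 0.0104 by edgeR), but not without TMM, with DESeq2, or without hnRNP M P-KO replicate 1. Nor was it called there with a minimum of 20 counts or with the number of windows.

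On NEAT1 the proteins were also laid out differently. The mean position of FOX2 counts was nt 9154 and 8273 in P-KO libraries, against 6180 and 7541 in WT libraries. For TDP43 it was nt 10607 and 15316 in P-KO libraries, against 11231 and 15113 in WT libraries. For hnRNP M it was nt 9232 and 9457 in P-KO libraries, against 12085 and 9327 in WT libraries. All 4 FOX2 libraries had a lower mean position than any other library, while TDP43 and hnRNP M overlapped. The difference among proteins passed (exact permutation test, p = 0.00519, adjusted 0.0167), but with the median position in place of the mean the p was 0.0822. Between P-KO and WT the mean position differed by 93.8 nt averaged over proteins (exact permutation test, p = 0.907).

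TDP43 counts on NEAT1 gathered in a 3′ block and in a second block near nt 7000. Segment nt 20733 to 21732 held 19.8% and 52.9% of NEAT1 counts in TDP43 P-KO libraries, against 31.0% and 57.6% in TDP43 WT libraries. For FOX2 it held 3.46% and 8.19% in P-KO libraries and 4.30% and 6.23% in WT libraries, so that TDP43 lay above FOX2 throughout. TDP43 had 83 and 693 counts there in P-KO and 261 and 516 in WT libraries. The hnRNP M libraries had none listed and 9 in P-KO and none listed and 6 in WT (TDP43 against hnRNP M, edgeR adjusted p = 0.0112, at most 0.0281 with 1 library left out, and called under each of the 5 other settings in which the segment was tested). FOX2 against TDP43 in this segment gave -4.30 on the log2 scale (SE 1.41, adjusted p = 0.0237 by edgeR), lost on leaving out any FOX2 library, TDP43 P-KO replicate 2 or TDP43 WT replicate 2, with an adjusted p of up to 0.260.

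Within that block the leading TDP43 site was nt 21412 (chr11:65211680), with 13 and 150 counts in TDP43 P-KO and 25 and 136 in TDP43 WT libraries. In both genotypes the first replicate was the low one, and the neighbouring site nt 21395 followed it, with none listed and 108 counts in P-KO and 5 and 62 in WT. At nt 21539 the counts were 5 and 57 in P-KO and 32 and 40 in WT. The second block was steadier: segment nt 6733 to 7732 held 21.7% and 21.6% of NEAT1 counts in TDP43 P-KO and 23.3% and 21.9% in TDP43 WT libraries. Its leading sites were nt 7050 (chr11:65197318), with 23 and 92 counts in TDP43 P-KO and 53 and 73 in TDP43 WT, and the adjoining nt 7061.

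**Figure D3:**
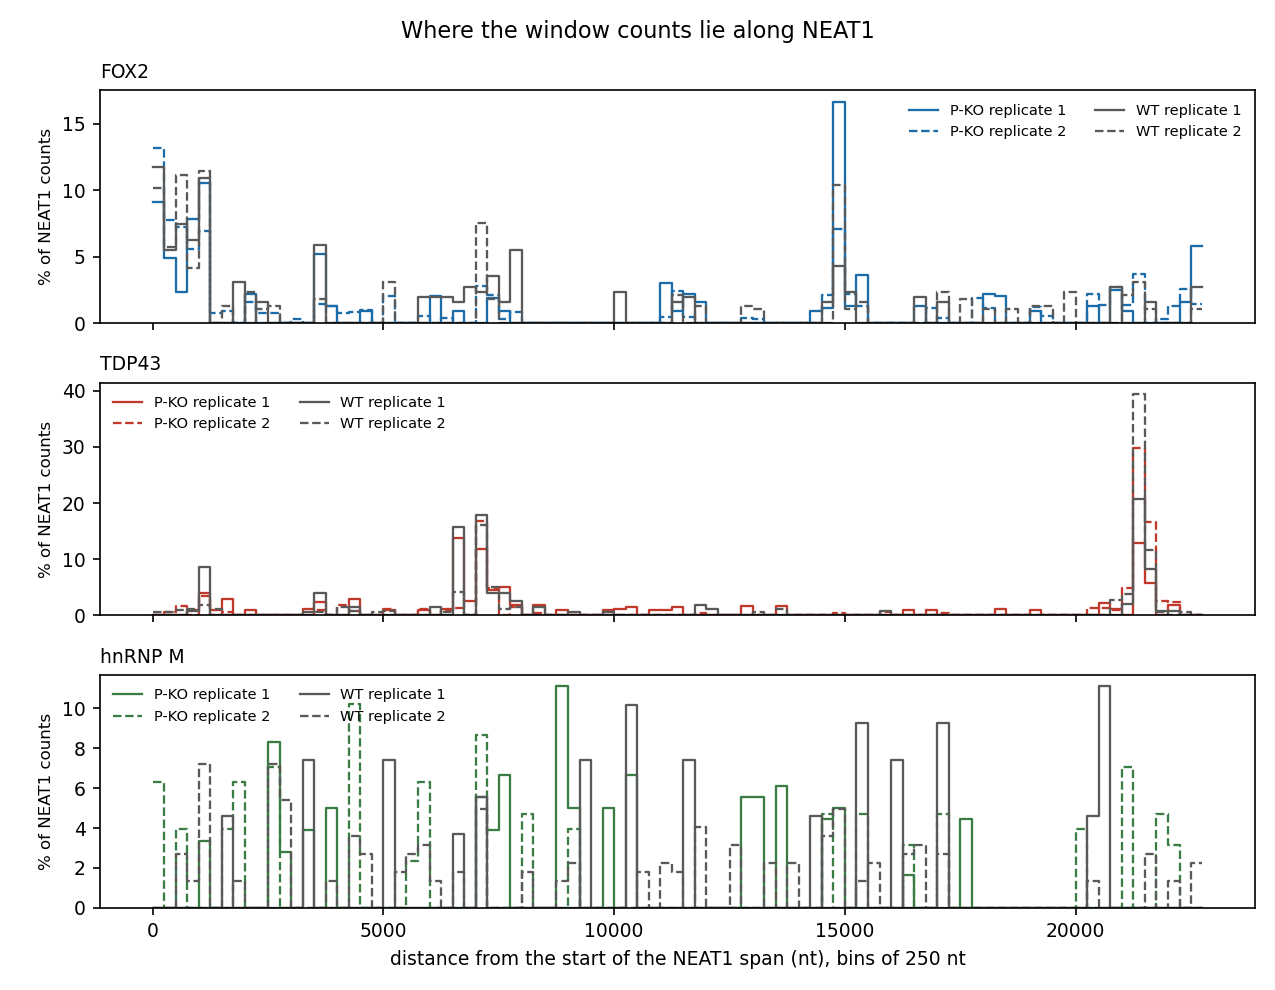
Percent of a library's NEAT1 window counts in bins of 250 nt, against distance from the start of the span in nt, with 1 panel per protein and 1 line per library (P-KO coloured, WT grey). FOX2 is highest at the 5′ end and near nt 14751 to 15000, TDP43 near nt 7000 and beyond nt 21000, and hnRNP M is scattered over the span.

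FOX2 counts on NEAT1 lay at the 5′ end and in a separate block past nt 14733. The first 732 nt held 16.4% and 28.2% of NEAT1 counts in FOX2 P-KO and 24.6% and 27.0% in FOX2 WT libraries, against none listed and 2.29% in TDP43 P-KO and none listed and 2.12% in TDP43 WT. Segment nt 14733 to 15732 had 137 and 247 counts in FOX2 P-KO and 17 and 50 in FOX2 WT libraries, against none listed and 6 in TDP43 P-KO and none listed in either TDP43 WT library. FOX2 was called above TDP43 there (edgeR adjusted p = 0.00483, at most 0.0114 with 1 library left out, and called under each of the 4 other settings in which it was tested). The hnRNP M libraries had 9 and 6 counts in the same segment in P-KO and 10 and 19 in WT.

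The FOX2 sites show the same layout one window at a time. Site nt 191 (chr11:65190459) had 30 and 52 counts in FOX2 P-KO and 21 and 6 in FOX2 WT, and nt 14802 (chr11:65205070) had 30 and 56 in P-KO and 11 and 17 in WT; neither was listed for TDP43 or hnRNP M. Site nt 756 (chr11:65191024) had 39 and 51 counts in FOX2 P-KO and 16 and 16 in FOX2 WT, and 7 in 1 TDP43 library. The sites at nt 594 and 710 were listed for all 3 proteins. The authors' annotation puts part of this 5′ end in an intron: 79 positions in 9 libraries, nt 591 to 762, were listed under the first intron of ENST00000499732.1, while most NEAT1 positions (2449 of 2797) were listed under ENST00000501122.2, which ran from nt 20 to nt 22636.

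The hnRNP M counts on NEAT1, only 108 to 222 per library, were spread more evenly. Their highest segment on average, nt 6733 to 7732, held 8.82% of them, against 24.0% for the highest FOX2 and 40.3% for the highest TDP43 segment. The highest hnRNP M bin of 250 nt, nt 7001 to 7250, lay in that segment and held 4.95% to 8.66%. The bins ranked 2 to 5 each had a library with none listed. The leading hnRNP M sites, nt 2610, 7169, 10486, 2976 and 16314, had 9 to 16 counts over 2 libraries each. Segment nt 8733 to 9732 had 29 and 5 counts in P-KO and 8 and 8 in WT libraries of hnRNP M, where no FOX2 library listed a position; FOX2 was called below hnRNP M there (edgeR adjusted p = 0.0118), a call lost on leaving out any FOX2 library or hnRNP M P-KO replicate 1. Over 228 bins of 100 nt, hnRNP M replicates correlated at -0.0374 and -0.0360, while FOX2 replicates reached 0.585 and 0.670 and TDP43 replicates 0.610 and 0.803.

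The other NEAT1 calls rested on few counts or on single libraries, and each was lost on leaving out at least 1 library. In segment nt 733 to 1732, FOX2 had 117 and 331 counts in P-KO and 44 and 65 in WT, and TDP43 37 and 53 in P-KO and 79 and 37 in WT, while hnRNP M had 6 and 5 in P-KO and 5 and 19 in WT; both FOX2 (edgeR adjusted p = 0.0273) and TDP43 (0.0401) were called above hnRNP M, and neither was with DESeq2 or without TMM. In the block near nt 7000, segment nt 6733 to 7732 had 18 and 123 counts in FOX2 P-KO and 22 and 36 in FOX2 WT, against 91 and 283 in TDP43 P-KO and 196 and 196 in TDP43 WT (log2 difference -3.18, SE 0.92, edgeR adjusted p = 0.0137). Leaving out any FOX2 or TDP43 library, or hnRNP M P-KO replicate 1, ended that call. TDP43 was also called above hnRNP M in this segment, which had 29 and 11 counts in P-KO and 6 and 11 in WT libraries of hnRNP M (log2 difference 3.96, edgeR adjusted p = 0.0106, and 0.0548 without hnRNP M P-KO replicate 1). That call was also lost without TMM and with DESeq2. With a minimum of 20 counts it was lost too, as were both calls in nt 733 to 1732.

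The last calls were in segments where whole groups were listed at 0, so no fold is given. FOX2 was called above TDP43 in segment nt 1733 to 2732 (edgeR adjusted p = 0.0324, lost without TDP43 WT replicate 1) and nt 13733 to 14732 (0.0242, lost without FOX2 WT replicate 1, TDP43 P-KO replicate 2 or either TDP43 WT library). FOX2 was called below TDP43 in nt 3733 to 4732 (0.0270, lost on leaving out any FOX2 or TDP43 library except TDP43 P-KO replicate 1) and nt 8733 to 9732 (0.0345, lost on leaving out any FOX2 or TDP43 library or hnRNP M P-KO replicate 1). In nt 3733 to 4732 the FOX2 libraries had 14 and 91 counts in P-KO and none listed in WT, against 12 and 35 in TDP43 P-KO and 18 and 21 in TDP43 WT, so the direction there rests on the WT libraries. FOX2 was called above hnRNP M in nt 17733 to 18732 (0.0357, lost without FOX2 WT replicate 2), but not without TMM or with DESeq2. With DESeq2 the FOX2 against TDP43 calls in nt 1733 to 2732, nt 3733 to 4732 and nt 8733 to 9732 were lost too. TDP43 was called below hnRNP M in nt 13733 to 14732 (0.0200, lost on leaving out hnRNP M WT replicate 2 or any TDP43 library) and nt 14733 to 15732 (0.0309, lost on leaving out any of 10 libraries).

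Fewer NEAT1 than MALAT1 sites were listed in many libraries. Of 398 NEAT1 sites 14 were listed in at least 6 libraries and none in 9, against 36 and 4 of 199 on MALAT1; this was not tested and the lower counts per site on NEAT1 go with it. FOX2 had 88 sites and TDP43 78 in at least 2 libraries, with 23 in common, 26.1% of the FOX2 list and 29.5% of the TDP43 list. hnRNP M had 5, of which 1, nt 7169, was shared with TDP43 and none with FOX2. The FOX2 sites of both P-KO libraries numbered 36 and those of both WT libraries 13, with 7 in common, 19.4% of the P-KO list and 53.8% of the WT list. For TDP43 the P-KO list was the shorter, with 20 sites against 41 in WT. The 16 in common were 80.0% of the TDP43 P-KO list and 39.0% of the WT list. The longer FOX2 list in P-KO again goes with the deepest library, FOX2 P-KO replicate 2, and the part of depth was not tested.

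**Figure D4:**
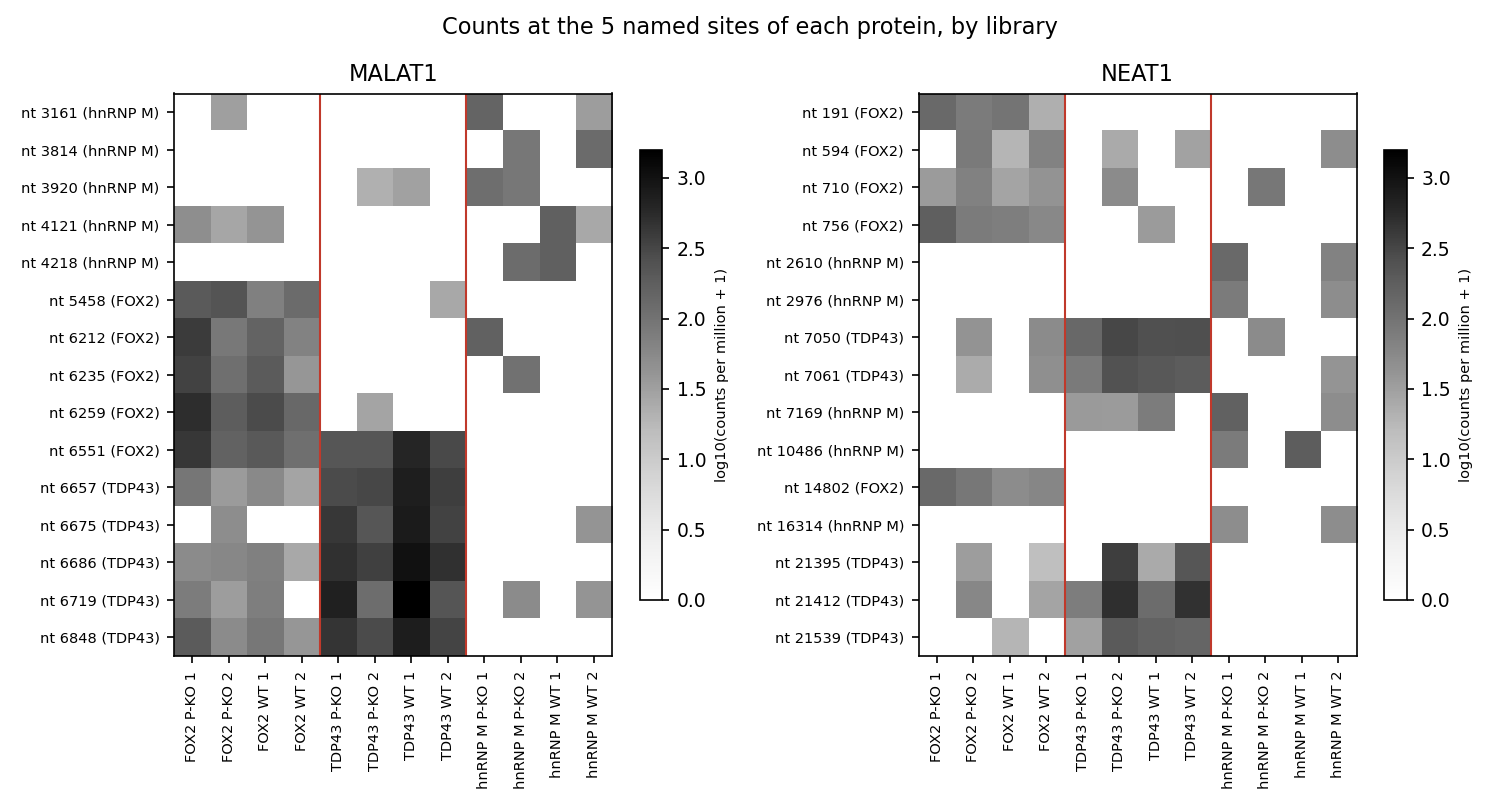
Counts at the 5 leading sites of each protein on MALAT1 (left) and NEAT1 (right), as log10 of CPM plus 1 in each of the 12 libraries; rows are sites in order along the RNA and white means not listed. On MALAT1 the sites from nt 6551 to nt 6848 are dark in all 4 TDP43 libraries, and nt 3814 to nt 4218 have counts in at most 2 hnRNP M libraries each.

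In these lists the counts on both spans lay on the sense strand. No library listed a position on the minus strand within either span, where RefSeq annotates an antisense gene, TALAM1, at MALAT1. None was listed on the plus strand in the 52221 nt between NEAT1 and MALAT1. Each listed position carries a transcript, and whether positions outside annotated transcripts could be listed is not known. These zeros therefore do not show a lack of contact there. The 60 kb before NEAT1 held 0 to 9 listed window counts per library, and the 60 kb after MALAT1 0 to 8. Both RNAs had more in every library.

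Across the 12 libraries, log2 CPM on MALAT1 and NEAT1 correlated at Pearson's r = 0.522. The features most like MALAT1 by this measure were the 10 kb bins 98930001 to 98940000 of chromosome 13, plus strand (r = 0.929), and 25420001 to 25430000 of chromosome 5, minus strand (r = 0.929). For NEAT1 they were 101080001 to 101090000 of chromosome 7, plus strand (r = 0.847), and 68000001 to 68010000 of chromosome 16, minus strand (r = 0.840). The libraries of a protein share their antibody and depth range, and the bins were picked as the most alike of many, so these are descriptions. The other 3 bins listed for each RNA had r of 0.913 to 0.922 for MALAT1 and 0.813 to 0.837 for NEAT1, and the genes in these bins are not named here.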

How the data were processed

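The submitters' processing notes name Bowtie and the build GRCh37 (hg19), and the tool that made the lists is not given in the sources used here. For each library the authors deposited 1 list, with 1 nucleotide per line, a transcript, a strand and a whole-number count that is not normalized; whether counts are reads or collapsed cDNAs is not stated. The last deposited column is a p-value or q-value of at most 0.05, used here only to describe the listing limit. That each count covers 11 nt was read from the values. Windows were chosen greedily without overlap, and a value that is not listed was taken as 0.

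edgeR 4.0.16 in R 4.3.3 (filterByExpr, TMM, glmQLFit and glmQLFTest, 1 mean per protein and genotype over all 12 libraries) was run on strand-specific 10 kb bins, with both RNAs as features of their own, and on 1 kb bins. A check on simulated counts used a smaller spread between libraries than the one estimated here. It does not show how the fits perform at the spread of these data. DESeq2 1.42.0 was an alternative. Exact permutation tests used log2 of counts plus 0.5, stratified by protein or genotype. Intervals on shares are 95% Clopper-Pearson (exact) and take in counting error alone. Profile correlations and other steps used Python 3.11.15 with scipy 1.17.1.

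Members, lists and tests were chosen with earlier results of these data known. Sites and segments named were the 5 highest sites per protein and RNA listed in at least 2 of its libraries, the sites in at least 9 libraries, the called segments and the 3 highest segments per protein. The planned lists of nuclear RNAs, paraspeckle protein genes and stem cell markers, and the motif search at sites, were not used, since no hg19 annotation or sequence was used here. Replicates of a group differed beyond sampling noise (chi-square per degree of freedom 4.09 to 9.21), so none was treated as a duplicate.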

Additional observations from a re-analysis of the deposited data

How the results depend on the processing

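Of 213 comparisons of a result with another setting (libraries left out apart), 187 were classed as unchanged. Differences had to keep their direction and side of the threshold, and counts of calls to stay within 1.5 times. Tests among the 3 proteins, and of the P-KO effect between proteins, had to keep only their side of the threshold. The MALAT1 share among proteins was so classed by number of windows, although hnRNP M was then highest (0.120%) and by window counts lowest (0.125%). The comparisons classed as changed follow, and the cause was not tested. Without TMM, the log2 difference turned to 0.13 for MALAT1 (P-KO, common to the 3 proteins), 0.52 for NEAT1 (P-KO, hnRNP M) and -0.091 for NEAT1 (FOX2 against hnRNP M). The NEAT1 P-KO value within hnRNP M, -0.01, also turned to 0.38 with DESeq2, 0.15 with the replicate block, 0.15 with the number of windows and 0.16 in the hnRNP M libraries alone. With the number of windows in place of counts, MALAT1 for FOX2 against TDP43 turned to 0.044, NEAT1 for FOX2 against hnRNP M to -0.086, and MALAT1 for TDP43 against hnRNP M was 0.74 and no longer passed (edgeR adjusted p = 0.10). NEAT1 for TDP43 against hnRNP M passed with DESeq2 (1.95), with the replicate block (2.30) and with no filter on low features (2.59). The NEAT1 share passed between P-KO and WT by the number of windows (log2 difference 0.58, exact p = 0.0370), and among proteins by the number of windows (exact p = 0.00593, with hnRNP M highest) and by all listed positions (exact p = 0.000741, with hnRNP M lowest). The NEAT1 position by its median had an exact p of 0.0822 among proteins.

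Calls among 1 kb segments for FOX2 against TDP43 (8) were 5 with DESeq2 and 5 with the number of windows. For FOX2 against hnRNP M (5) they were 3 with a minimum of 20 counts, 3 with the number of windows, 8 with the grid shifted by 500 nt and 9 with the replicate block. For TDP43 against hnRNP M (8) they were 4 with a minimum of 20 counts and 4 with the number of windows. Leaving out 1 library at a time gave 3 to 14, 4 to 15 and 4 to 11 calls.

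Leaving out 1 library moved the common P-KO value of MALAT1 between -0.42 and 0.36, the hnRNP M value between -1.70 and 0.49, and the NEAT1 value between -0.85 and 0.50 in TDP43 and between -0.90 and 0.90 in hnRNP M. MALAT1 ranged from 3.56 to 4.66 for FOX2 and from 3.87 to 4.97 for TDP43 against hnRNP M, and NEAT1 from 1.75 to 2.65 and from 2.16 to 3.17. The P-KO difference in share ranged from -0.033 to 0.33 (MALAT1) and 0.43 to 0.72 (NEAT1), that in position from -350.7 to 30.3 nt (MALAT1) and -691.0 to 878.6 nt (NEAT1), and the p of the NEAT1 share among proteins from 0.0237 to 0.224 by the exact test.

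Replicate numbers were not taken as pairs, since deviations of same-numbered P-KO and WT libraries correlated at 0.116 in FOX2, 0.0867 in TDP43 and 0.0256 in hnRNP M over all features, and the labels do not say what a number marks. Profiles along the RNAs are a hint the other way, from the data and not the design: for TDP43 on NEAT1, r was 0.89 and 0.95 between P-KO and WT libraries of the same number, against 0.77 and 0.65 for different numbers. With the replicate block, which for shares, ratios and positions was added after the values had been seen, the MALAT1 to NEAT1 ratio was lower in P-KO in 6 of 6 same-numbered pairs (mean log2 difference -0.42, exact p = 0.0313, the smallest possible), against p = 0.176 without the block. Another alternative chosen after seeing the data, a common lower limit in CPM, changed none of its 10 results. The hnRNP M libraries had as few as 49 counts on MALAT1, which limits every hnRNP M profile.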

Other observations

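In both FOX2 and both TDP43 groups the library numbered 1 had the higher ratio of MALAT1 to NEAT1 counts: 2.89 against 1.55 in FOX2 P-KO, 3.22 against 1.81 in FOX2 WT, 2.41 against 1.13 in TDP43 P-KO and 2.93 against 1.76 in TDP43 WT. The TDP43 block of NEAT1 at nt 20733 to 21732 held 19.8% and 31.0% of NEAT1 counts in the TDP43 libraries numbered 1 (P-KO and WT) and 52.9% and 57.6% in those numbered 2. The labels do not say what the number marks, and this was not tested.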
